A study of Mus musculus with 8 samples.

Results

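The mouse miR-506 family of the X chromosome was followed in mature sperm through 10 of its miRNAs, mmu-mir-463, mmu-mir-465a, mmu-mir-470, mmu-mir-471, mmu-mir-741, mmu-mir-743a, mmu-mir-871, mmu-mir-880, mmu-mir-881 and mmu-mir-883a. A fragment was assigned to a member when its annotation named that miRNA and no other, with the suffix of hairpin copies ignored. These 10 were among 861 miRNA species listed in the libraries, and a species is 1 annotated RNA or 1 set of RNAs that share a fragment. All 10 had at least 50 counts in each of the 8 libraries and were tested.

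Sperm came from the caudal epididymides of 8 mice, 4 in each group, and small RNA was sequenced from 1 library per mouse. Activated mice were Agrp Cre/+ and control mice Agrp +/+. Both genotypes carried the virus AAV-hM3Dq-mCherry, which encodes an activating designer receptor, injected on both sides of the arcuate nucleus at 8 weeks of age, and both received the receptor's ligand CNO at 1 mg per kg 3 weeks later, with food withheld. Cre is driven from the Agrp locus, so the receptor is meant for AgRP neurons of the activated mice only, and sperm was taken 4 h after CNO in both groups. Genotype and activation therefore cannot be told apart. The files held 9297271 to 23123740 reads per library.

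miRNAs are cut from hairpins as a 5p and a 3p arm, and bases 2 to 8 of the loaded arm, the seed, pair with target RNAs. The miR-506 family is a rapidly evolving group of X-linked miRNAs, expressed mainly in testis, where its members are abundant in spermatogenic cells. Copies have multiplied within the cluster, so that several hairpins differ at few bases.

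The sequences below are the mature arms on which the results turn, from RefSeq on GRCm38.p6, with the seed in capitals. All 10 members were matched in that table. The arms mmu-miR-743a-5p and mmu-miR-871-5p share a seed.
mmu-miR-743a-5p: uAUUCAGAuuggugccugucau
mmu-miR-871-5p: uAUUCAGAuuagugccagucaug
The RefSeq entry of mmu-miR-881-5p has another seed, and the line after it gives the same hairpin from the base at which nearly all of its fragments began.
mmu-miR-881-5p: cAGAGAGAuaacagucacaucu
mmu-miR-881-5p from its main start: uAUUCAGAgagauaacagucacaucu
The 3p arms with a frequent second start are shown next, and mmu-miR-743b-3p, of a neighbouring family hairpin, shares the seed of mmu-miR-743a-3p.
mmu-miR-743a-3p: gAAAGACAccaagcugaguaga
mmu-miR-743b-3p: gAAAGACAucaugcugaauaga
mmu-miR-883a-3p: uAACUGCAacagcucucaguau
mmu-miR-741-3p: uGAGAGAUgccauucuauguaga
mmu-miR-471-3p: uGAAAGGUgccauacuauguau
The arms of mmu-mir-470 varied differently over the libraries, and the 5p arm of mmu-mir-465a is the one from which its counted reads came.
mmu-miR-470-5p: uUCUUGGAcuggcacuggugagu
mmu-miR-470-3p: aACCAGUAccuuucugagaaga
mmu-miR-465a-5p: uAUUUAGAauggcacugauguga

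The 10 hairpins lie on the minus strand of chromosome X within 62.4 kb, from Mir743 at chrX:66776757-66776818 to Mir465, the gene of mmu-mir-465a, at chrX:66839052-66839125. GENCODE M21 places 20 genes in this span, 19 of them miRNA genes and 1 a processed pseudogene, Gm14681. No member lies inside another gene of that annotation. Each is annotated as a miRNA gene of its own.

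One library stood apart before any comparison. Control replicate 4 held 36472 RPM, reads per 1000000 reads of the file, of the 5 miRNAs listed for muscle and vessel, against 180 to 524 RPM in the other 7 libraries, and mmu-mir-145a and mmu-mir-143 made up 17715 and 17171 RPM of it. Over all libraries mmu-mir-143 had the highest mean of the list. Control replicate 4 also held 19420 RPM of the 7 miRNAs listed for epithelium, led there by mmu-mir-200c, against 1085 to 3476 RPM elsewhere. None of the miRNAs of these 2 lists was at 0 in any library. The summed ratio of the family, the members' fold changes and main-arm shares and edgeR's counts of calls were also computed without this library, while the other values use all 8 libraries. The part of other cells in the results was not tested.

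The libraries also differed in mitochondrial rRNA. It made up 0.123% to 0.182% of reads in activated replicates 1 and 4 and control replicates 2 and 4, and 1.09% to 1.89% in activated replicates 2 and 3 and control replicates 1 and 3. Each group thus has 2 libraries on either side. The 5 miRNAs listed as sperm-borne, miR-34 and miR-449, summed to 22585, 16323, 15812 and 21292 RPM in activated and 15506, 19068, 13349 and 15143 RPM in control replicates 1 to 4, a ratio of means of 1.21 with overlap. Within the list, mmu-mir-34c averaged 9345 RPM in activated and 6769 RPM in control mice and mmu-mir-34b 8428 and 8211 RPM. Over the 8 libraries their Pearson r with the summed RPM of the members, on a log2(RPM + 1) scale, was 0.93 and -0.52.

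Together the 10 members gave 29151, 21076, 14269 and 28430 RPM in activated replicates 1 to 4. Control replicates 1 to 4 had 16741, 24899, 10585 and 22747 RPM. The groups overlapped widely, and their means were 23231 ± 7001 RPM (SD, n = 4) in activated and 18743 ± 6442 RPM in control mice, a ratio of 1.24. The 4 libraries poor in this rRNA held 22747 to 29151 RPM of the family and the other 4 held 10585 to 21076 RPM, with no overlap, and the part of this difference between libraries in the result was not tested. The ratio of activated to control was 1.21 within the former libraries and 1.29 within the latter, with 2 mice a group each time, and 1.33 over all mice without control replicate 4. The members took 4.83% to 7.70% of miRNA reads, the lowest share being that of control replicate 4. Fewer germ-cell RNAs per library and less of these miRNAs per sperm cannot be told apart in such samples.

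**Figure D1:**
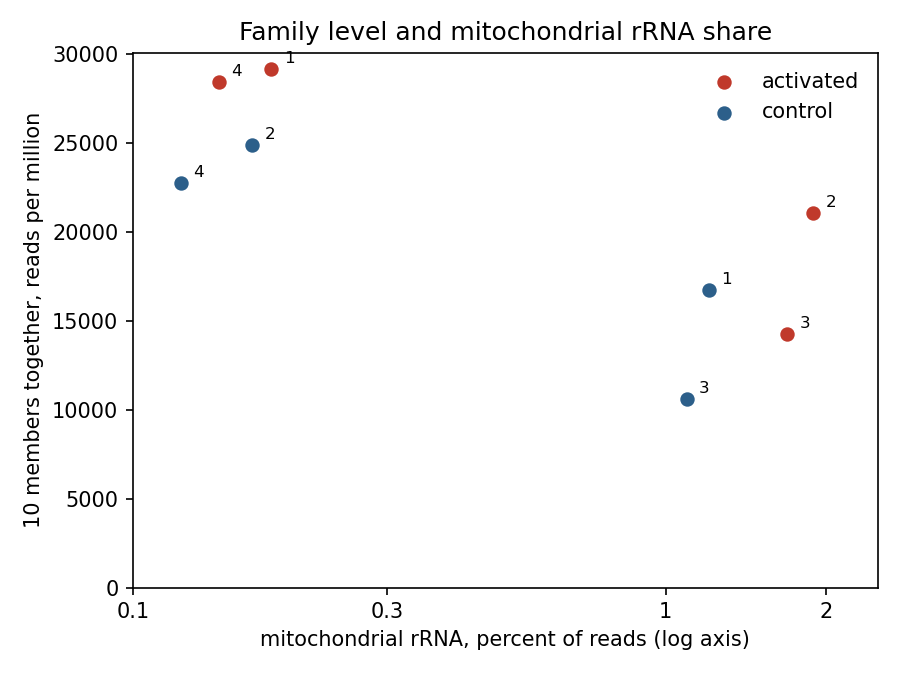
Summed RPM of the 10 members (vertical axis) against the share of mitochondrial rRNA among reads in percent (horizontal log axis), 1 point per library, numbered by replicate. The 4 libraries at 0.123% to 0.182% lie between 22747 and 29151 RPM, above the other 4.

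Among the members, levels ran from a mean of 4870 RPM for mmu-mir-741, rank 8 of all miRNA species, to 172 RPM for mmu-mir-880, rank 97. Whole fragments of about 22 nt are counted, so no length correction was made. RPM compares reads, and how reads relate to molecules in each sequence was not measured. mmu-mir-741 stood above mmu-mir-465a in 5 of 8 libraries, and these neighbours did not differ beyond their spread. The count of mmu-mir-465a also leaves out fragments shared with mmu-mir-465b and mmu-mir-465c, 2862 RPM on average. The order of these 2 members therefore depends on the assignment rule. mmu-mir-465a, at 4607 RPM, exceeded mmu-mir-743a, at 3393 RPM, in 8 of 8. Next came mmu-mir-871 with 2661 RPM. mmu-mir-881, mmu-mir-471 and mmu-mir-470 followed with 1582, 1472 and 1430 RPM and changed order between libraries, each standing above the next in 4 of 8. All 8 libraries had mmu-mir-470 above mmu-mir-463, at 413 RPM, and mmu-mir-883a, at 388 RPM, above mmu-mir-880.

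The most abundant member by fragments that name 1 miRNA alone, mmu-mir-741, was at 6140, 4772, 2893 and 7001 RPM in activated replicates 1 to 4. In control replicates 1 to 4 it was at 3873, 6414, 2674 and 5191 RPM. Both groups spanned nearly the same range, and replicate 3 was the lowest of each.

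mmu-mir-881 varied most over the libraries. It was at 3052, 1482, 845 and 1913 RPM in activated replicates 1 to 4 and at 1073, 1987, 622 and 1682 RPM in control replicates 1 to 4, a range of 4.91-fold. mmu-mir-470 varied least. It was at 1321, 1453, 1385 and 1741 RPM in activated and 1552, 1359, 1159 and 1471 RPM in control replicates. In 6 of the 10 members, all 4 libraries poor in mitochondrial rRNA stood above the other 4, against 118 of 587 species (20.1%) and 109 of 273 miRNA species (39.9%), and mmu-mir-470 was not among the 6. All miRNA species together took 33.2% to 47.1% of reads in the former libraries and 17.8% to 28.9% in the latter, while the members' share of miRNA reads overlapped between them.

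**Figure D2:**
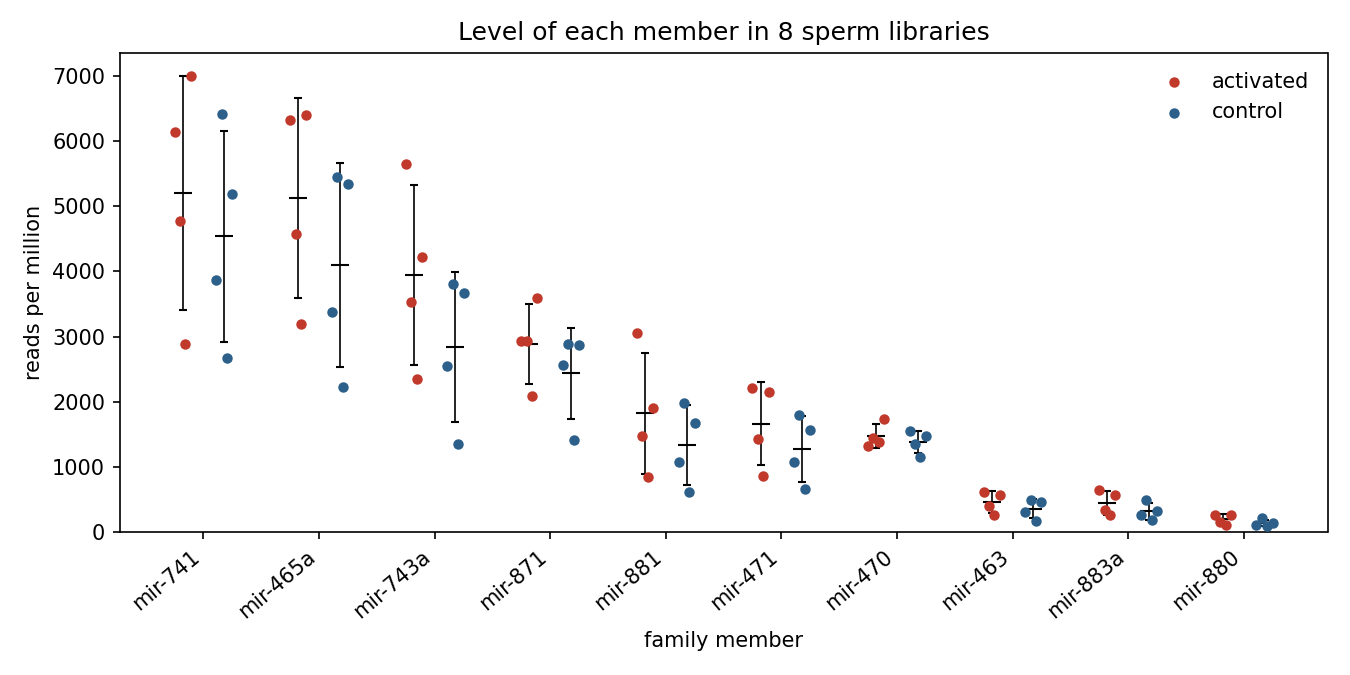
RPM of each member (vertical axis) in the 4 activated and 4 control libraries, 1 point per library, with bars for the mean and SD of each group. Members are ordered by mean, from 4870 RPM for mmu-mir-741 to 172 RPM for mmu-mir-880, and the groups of all 10 overlap.

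The comparison of activated with control mice asks whether these miRNAs differ in sperm 4 h after the neurons were driven. By edgeR's quasi-likelihood test, 0 of 10 members were called, a call needing both a log2 fold change beyond 1 in either direction and p under 0.05 after adjustment, against 0 of 587 RNA species tested (0%). At an unadjusted p under 0.05 edgeR counted 0 members and 48 species, and DESeq2 called 0 members and 3 of 587 species (0.511%). The groups of 0 of 10 members were free of overlap in RPM, against 13 of 587 species (2.21%). All 10 edgeR estimates were positive, from 0.13 for mmu-mir-470 to 0.47 for mmu-mir-883a in log2, and each 95% interval held 0. Their median was 0.35, beside -0.07 over all species and 0.15 over the 273 miRNA species tested. Of those miRNA species, 167 had a positive estimate. DESeq2's estimates of the members, shrunken by apeglm, were smaller, from 0.046 for mmu-mir-741 to 0.142 for mmu-mir-880. Without control replicate 4 the members' 10 edgeR estimates were all positive too, from 0.12 to 0.58, with 0 called. Without control replicate 3, again with 0 called, that of mmu-mir-741 was the only negative one, at -0.012. There mmu-mir-463, mmu-mir-465a and mmu-mir-871 were at 0.10, 0.09 and 0.06, and mmu-mir-743a and mmu-mir-880 at 0.20 and 0.31.

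In edgeR's main fit the largest estimates belonged to the 2 least abundant members. mmu-mir-883a was at 641, 336, 264 and 573 RPM in activated replicates 1 to 4. It was at 265, 496, 191 and 335 RPM in control replicates 1 to 4, so that the groups overlapped. Its log2 fold change was 0.47 (SE 0.33, edgeR adjusted p = 0.621).

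mmu-mir-880 was at 268, 153, 114 and 268 RPM in activated and 113, 214, 97.2 and 147 RPM in control replicates, again with overlap. Its log2 fold change was 0.47 (SE 0.32, edgeR adjusted p = 0.595), with a 95% interval of -0.25 to 1.18. Exact two-sided permutation tests of RPM gave p of at least 0.20 and at most 0.629 over the 10 members, and the smallest p that 70 assignments allow is 0.0286. With the side of the mitochondrial rRNA split as a term, the estimates of mmu-mir-883a and mmu-mir-880 were 0.51 and 0.49 with SE 0.18 each, and their 95% intervals, 0.08 to 0.93 and 0.07 to 0.92, did not hold 0. Their unadjusted edgeR p was 0.0252 and 0.0278 and their edgeR adjusted p 0.421 in both cases, and these 2 of 10 members had an unadjusted p under 0.05 in that fit, against 63 of 587 species (10.7%). The largest estimate of a member in the same fit was that of mmu-mir-743a, 0.52, with a 95% interval of -0.09 to 1.12.

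**Figure D3:**
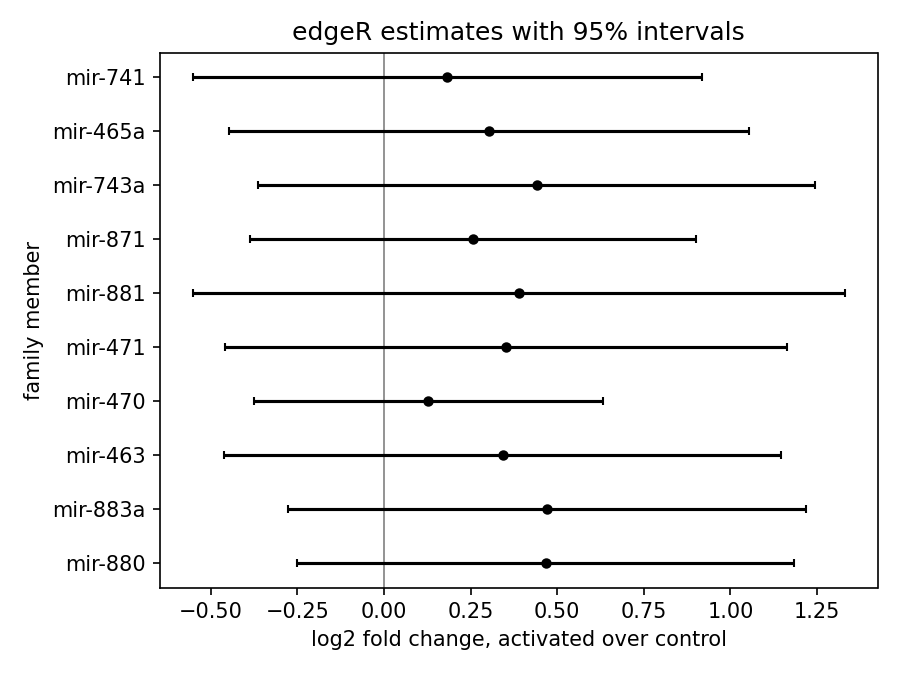
Log2 fold change of each member, activated over control (horizontal axis), as edgeR estimates with 95% intervals, 4 libraries per group. All 10 points lie between 0.13 and 0.47 and every interval crosses 0.

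Single fragments gave the same picture. The members comprised 551 distinct fragments, of which 107 had at least 50 counts in at least 4 libraries. edgeR called 0 of these 107, against 52 of 12077 fragments of all kinds (0.431%), all 52 higher in activated mice, and 0 of the 107 had an unadjusted p under 0.05, against 872 of 12077 (7.22%). In this fit the members' estimates ran from -0.08 to 0.80 in log2, and 103 of 107 were positive. Their median was 0.32, beside 0.08 over all fragments tested. DESeq2 called 0 of the 107, against 240 of 12077 (1.99%), 195 higher and 45 lower. With the side of the mitochondrial rRNA split as a term, edgeR called 0 of the 107, against 137 of 12077 (1.13%), 124 higher and 13 lower. An unadjusted p under 0.05 was found there in 12 of the 107, all higher, against 1317 of 12077 (10.9%), of which 746 were higher and 571 lower. The 52 calls of edgeR's main fit over all fragments became 0 when any 1 of activated replicates 1, 3 and 4 or control replicates 2, 3 and 4 was left out, 15 without activated replicate 2 and 54 without control replicate 1.

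Reads were placed on the hairpin to separate the arms, and all fragments of the members were found in their hairpins. The reads counted for mmu-mir-465a were all of its 5p arm, which says nothing of its use of arms. Its 3p arm is identical in mmu-mir-465b and mmu-mir-465c, so that fragments of it name more than 1 miRNA, and fragments shared by these 3 names summed to 2083 to 3754 RPM outside the member's own count. mmu-mir-880 gave reads of its 3p arm only, and no read of its 5p arm, for which 3 counts, the limit that a count of 0 allows, equal 0.130 to 0.323 RPM.

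The other members used both arms. The 3p arm held 95.3% of reads of mmu-mir-741, 94.9% of mmu-mir-743a, 83.9% of mmu-mir-471 and 69.3% of mmu-mir-881, as means over 8 libraries. The 5p arm held 93.7% of mmu-mir-470, 90.9% of mmu-mir-463, 69.4% of mmu-mir-883a and 61.6% of mmu-mir-871. The main arm was the same in all 8 libraries for each of these members. In 1 of these 8 members the arm shares did not overlap between groups, against 1 of 32 miRNAs with at least 50 counts of both arms in every library (3.12%), which is the same miRNA. The 5p arm of mmu-mir-741 held 6.89%, 5.03%, 5.38% and 5.03% of its reads in activated and 3.44%, 4.46%, 3.25% and 4.34% in control replicates 1 to 4, and no test was run on arm shares.

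The arms of mmu-mir-470 did not vary together. Its 5p arm was at 1194, 1367, 1321 and 1604 RPM in activated and 1483, 1239, 1118 and 1387 RPM in control replicates 1 to 4, a range of 1.44-fold. Its 3p arm was at 127, 85.0, 64.3 and 137 RPM in activated and 69.1, 120, 41.1 and 84.4 RPM in control replicates, a range of 3.33-fold. The 3p arm ordered the libraries much as the summed members did, and the 5p arm did not. Over the 8 libraries its Pearson r with the summed RPM of the members was 0.98 on a log2(RPM + 1) scale, and that of the 5p arm was 0.38.

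**Figure D4:**
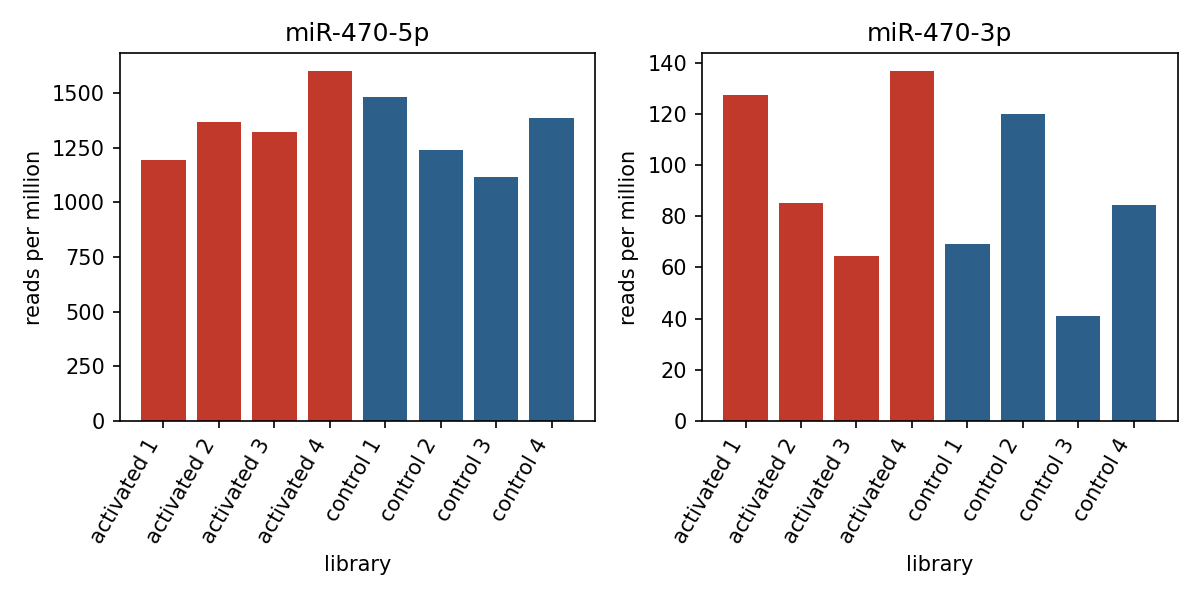
RPM of miR-470-5p (left) and miR-470-3p (right) in each of the 8 libraries, activated in red and control in blue, on linear axes from 0. The 5p arm spans 1118 to 1604 RPM and the 3p arm 41.1 to 137 RPM.

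The 5′ end sets the seed, and it was nearly fixed in the 5p arms. Of the 18 member arms with at least 50 counts in every library, 8 of 9 5p arms and 4 of 9 3p arms had over 95% of reads at 1 start. In mmu-miR-743a-3p, 77.4% of reads began at the RefSeq base and 22.5% began 1 base later, as means over the 8 libraries, which moves the seed. That later start made up 22.3% ± 0.999 (SD, n = 4) in activated and 22.6% ± 1.21 in control mice. By the same means, in mmu-miR-883a-3p the start 1 base later held 20.4%, in mmu-miR-471-3p 12.4%, and in mmu-miR-741-3p a start 2 bases later held 17.1%. The shares of both groups overlapped in each of these arms. In 1 of the 18 member arms, mmu-miR-881-3p, the share at the main start did not overlap, against 5 of 154 miRNA arms (3.25%). Its start 1 base earlier held 1.73% to 2.35% in activated and 1.55% to 1.73% in control mice, the groups being apart by less than the rounding. From the later starts, with the shifted seed in capitals, the sequences read as follows.
mmu-miR-743a-3p, 1 base later: aAAGACACcaagcugaguaga
mmu-miR-883a-3p, 1 base later: aACUGCAAcagcucucaguau
mmu-miR-741-3p, 2 bases later: aGAGAUGCcauucuauguaga
mmu-miR-471-3p, 1 base later: gAAAGGUGccauacuauguau

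**Figure D5:**
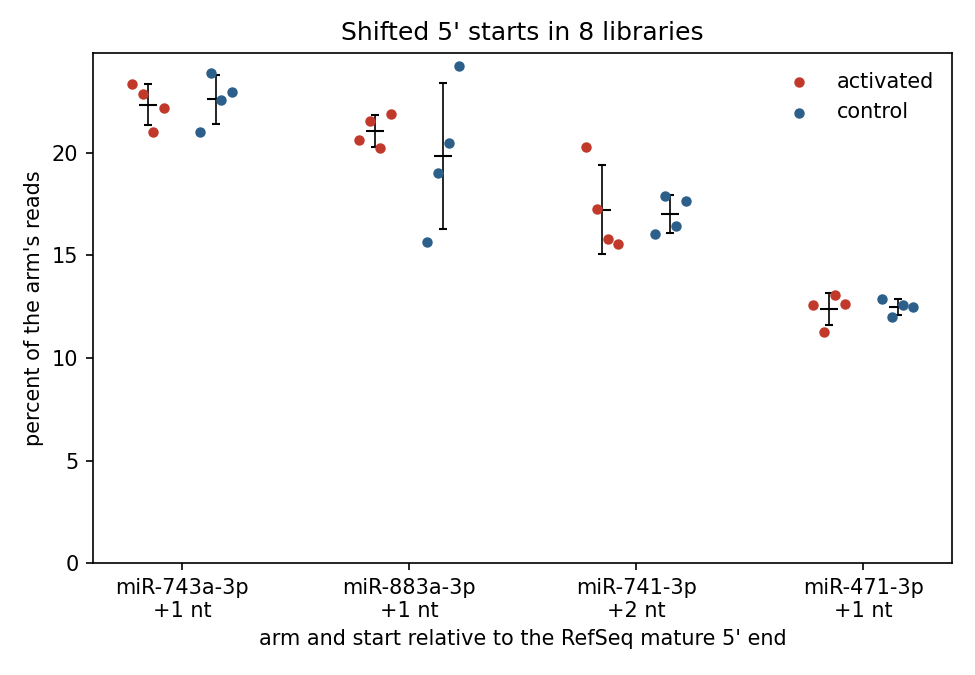
Percent of an arm's reads that begin at the named distance after the RefSeq 5′ base (vertical axis) in 4 arms, 1 point per library, with bars for the mean and SD of each group. The start of miR-743a-3p 1 base later averages 22.3% in activated and 22.6% in control libraries.

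mmu-miR-881-5p was the exception among 5p arms in where it began. Of its reads, 99.2% started 4 bases before the RefSeq mature sequence, and 7 of 58647 started at its first base. The start 4 bases earlier held 99.1% to 99.4% in every library. From there the seed equals that of mmu-miR-743a-5p and mmu-miR-871-5p, printed above, so 3 members shared 1 seed by their main 5p starts. At 488 RPM on average, mmu-miR-881-5p stood between mmu-miR-871-5p, at 1644 RPM, and mmu-miR-743a-5p, at 168 RPM.

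The remaining X-linked miRNAs of the family, 10 by the list used, were mmu-mir-201, mmu-mir-465b, mmu-mir-465c, mmu-mir-465d, mmu-mir-509, mmu-mir-547, mmu-mir-742, mmu-mir-743b, mmu-mir-878 and mmu-mir-883b. Of these, 6 had enough counts to be tested and 0 were called by edgeR, with log2 fold changes of 0.22 to 0.51. DESeq2's calls included none of them, and 0 had an unadjusted edgeR p under 0.05. By fragments that name 1 miRNA alone, mmu-mir-743b was the most abundant. It was at 6466, 3666, 2613 and 5526 RPM in activated and 2680, 4785, 1879 and 4014 RPM in control replicates. It was high and low in the same libraries as the members. mmu-mir-201 and mmu-mir-547, at chrX:67988096-67988161 and chrX:67988374-67988451, stayed at 0.914 and 1.78 RPM on average, and mmu-mir-509 had no reads. Within the span of the members, mmu-mir-465d was also low, at 1.01 RPM on average. Fragments shared by mmu-mir-465a, mmu-mir-465b and mmu-mir-465c did not overlap between groups, at 2888 to 3754 RPM in activated and 2083 to 2879 RPM in control mice, but were not called (log2 fold change 0.34, SE 0.22, edgeR adjusted p = 0.591). Over all species tested, the groups of 13 of 587 (2.21%) were free of overlap in RPM.

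Other miRNAs followed the same pattern over the libraries. Among 255 miRNA species outside the family, the 5 most like the summed members were mmu-mir-147, mmu-mir-467c, mmu-mir-194, mmu-mir-294 and mmu-mir-17, with r of 0.994, 0.993, 0.992, 0.991 and 0.991 over 8 samples on the log2(RPM + 1) scale. Species counted in the same library share its depth and composition, 61 of the 255 had r over 0.9, and the median was 0.691. The pattern is thus not particular to the family. Between members, the lowest r of 45 pairs was 0.357 and involved mmu-mir-470, and without that member it was 0.788.

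GC content was examined after the values were seen. The top fragment of mmu-miR-470-5p, the flattest member arm, has 52.2% GC, and the other 17 member arms have 31.8% to 45.5%. Outside the 10 members, mmu-miR-742-3p, at 52.4% GC, had r = 0.953 with the members and a 2.95-fold range. There mmu-miR-878-3p, at 57.1% GC, had r = 0.880 and a 2.14-fold range, and mmu-miR-883b-3p, at 34.8% GC, r = 0.785 and a 1.93-fold range. Over the 18 member arms, GC content and the SD of log2(RPM + 1) had r = -0.66, and r = -0.45 without mmu-miR-470-5p. Over 27 arms of the family, which do not include mmu-miR-465b-5p, r was -0.56. Over the 255 other miRNA species, GC content had r = -0.44 with the likeness to the family and r = -0.10 with the SD, for which Spearman's rho was -0.25. Median likeness was 0.817 in the 123 species under 45% GC, 0.628 in the 90 species from 45% to under 55% and 0.0651 in the 42 species at 55% or more. The median SD was 0.68, 0.52 and 0.43 in the same order. These species share libraries and are not independent, other measures of the difference between libraries were also looked at, and the part of GC content in the result was not tested.

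Of the marker lists, erythrocyte miRNAs, led by mmu-mir-451a, summed to 201, 47.9, 64.6 and 58.3 RPM in activated and 126, 383, 565 and 285 RPM in control replicates 1 to 4. The sum leaves out fragments shared by mmu-mir-486a and mmu-mir-486b, which stood at 25.7 to 97.0 RPM in activated and 109 to 412 RPM in control mice, with no overlap, while fragments of mmu-mir-486b alone were at 0 in 4 libraries. Leukocyte miRNAs, led by mmu-mir-142a, summed to 979, 432, 706 and 623 RPM in activated and 410, 539, 394 and 879 RPM in control replicates 1 to 4. edgeR called 0 miRNAs of the 5 lists in either direction. DESeq2 called mmu-mir-451a lower in activated mice (shrunken log2 fold change -1.65, SE 0.53, DESeq2 adjusted p = 0.0164). It also called the shared fragments of mmu-mir-486a and mmu-mir-486b lower (shrunken log2 fold change -2.11, SE 0.54, DESeq2 adjusted p = 0.00193). Activated replicate 1 was the highest library for the family and for the leukocyte list, and control replicate 3 was the lowest for both and the highest for the erythrocyte list. Over the 8 samples, the r with the summed members was 0.899 for mmu-mir-142a, 0.0661 for mmu-mir-146a, -0.216 for mmu-mir-223 and -0.436 for mmu-mir-150 of the leukocyte list. It was 0.0722 for mmu-mir-144 and -0.247 for mmu-mir-451a of the erythrocyte list. The part of blood or other cells in the family's levels was not tested.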

How the data were processed

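Small RNA of mature sperm was sequenced in 8 libraries, 4 activated and 4 control. The authors trimmed reads, kept duplicates, matched them without mismatches by Bowtie to mm10 and small RNA databases within the SPORTS pipeline, and deposited the counts of every distinct sequence of 15 to 45 nt. Counts were summed by annotated RNA. Sequences without annotation, 9.53% to 23.7% of reads, entered the file total but no test of species. RPM is reads per 1000000 of that total. edgeR 4.0.16 (quasi-likelihood, TMM, file total as library size, at least 50 counts in at least 4 samples) was the main test, with Benjamini-Hochberg adjustment over all features, in R 4.3.3. DESeq2 1.42.0 with apeglm 1.24.0, other size factors, filters, denominators, read subsets, a replicate block and each sample left out were alternatives. Arms were assigned by the midpoint of a fragment in the RefSeq hairpin. Named miRNAs were all members, the fixed list of other family miRNAs, the top fragment of each arm, some miRNAs of the 5 marker lists and the 5 species most like the members. The members and lists were chosen with earlier results of these data known. The p-values of edgeR and DESeq2 set a group difference against the spread between these samples. Those of the permutation test set it against other assignments of the samples to groups. Reads carry no molecular identifiers as used here, so limits from counts of 0 cover counting error only.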

Additional observations from a re-analysis of the deposited data

Results flagged for a closer look

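In 112 groups of 4 libraries examined, 6 values lay far from the rest of their group by Dixon's ratio, above its 95% critical value for 4 samples, and chance alone marks about 1 in 20 groups. Control replicate 4 had 36472 RPM of the muscle and vessel list, against 255 to 445 RPM in the other control libraries, and 19420 RPM of the epithelium list, against 1364 to 2732 RPM. Activated replicate 1 had 3476 RPM of the epithelium list, against 1085 to 1196 RPM, and 201 RPM of the erythrocyte list, against 47.9 to 64.6 RPM. The share of mmu-mir-871 reads in its 5p arm was 65.2% in activated replicate 1, against 60.7% to 61.1%, and 58.4% in control replicate 3, against 61.7% to 62.3%. No member's RPM and no summed RPM of the family was far from its group in this way.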

How the results depend on the processing

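Log2 fold changes of members under alternatives are refits of the same libraries, so they are not independent. The setting without a fold change minimum repeats the main estimates. Of these 200 values, 198 were positive and 0 were called, with a lowest adjusted p of 0.335. The negative ones were mmu-mir-470 with miRNA species alone in the fit, at -0.050, and mmu-mir-741 without control replicate 3, where values with each sample left out ran from -0.012 to 0.36. The cause was not tested. Members called stayed at 0 in all alternatives run, and so did member fragments. RNA species called by edgeR stayed at 0, and DESeq2 called 3, all lower in activated mice and none of the family. The summed RPM ratio ran from 1.08 without control replicate 3 to 1.40 without activated replicate 3. It was 1.17 per miRNA read, 1.36 per TMM-scaled read and 1.27 per annotated read, the last chosen after seeing the data. Both groups use the same replicate numbers, and the labels do not say whether these pair the samples. Deviations of same-numbered samples correlated at -0.51, 0.04, 0.52 and -0.11, and so few values cannot decide it. With the replicate block, species, members and member fragments called were 0, and the 52 calls of edgeR over all fragments became 0. With the mitochondrial rRNA side as a term there were 124 higher and 13 lower, and by DESeq2 195 higher and 45 lower. Arm shares of the 8 members with reads of both arms moved by less than their SD in all 72 values under alternatives. Leaving out 1 of 8 libraries cannot move a mean by as much as that SD. Fragments of 18 to 26 nt, the other alternative, hold nearly all reads of each member. These alternatives could therefore hardly show a shift, and no conclusion is drawn from them. The arm share of mmu-mir-880 is 100% in every library. That of mmu-mir-465a follows from the assignment rule, as its 3p arm is shared with its copies. With 4 mice a group, the widest interval of a member reached a log2 fold change of 1.33, so larger changes than those estimated are not shut out by these data.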
